A study of Homo sapiens with 30 samples.

Results

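Gene expression was compared between A549 cells that had received the lowest dose of an ethanol extract of a herbal formula and A549 cells that had received vehicle only. A549 is a human lung adenocarcinoma cell line. The extract libraries were chosen by their labelled dose of 20 µg/mL: 2 of Samul-tang (numbered 2 and 3 in the labels), 1 of Sagunja-tang (numbered 3), 3 of Palmul-tang and 3 of Sibjeondaebo-tang, 9 in all. They were set against the 3 vehicle libraries, so 12 of the 30 libraries of the series are compared. All were collected 24 h after treatment, and the vehicle is given as 0.1% DMSO by the labels of the samples but as 2% by the text of the series. The formulas are Korean tonifying prescriptions. Palmul-tang joins the herbs of Samul-tang and Sagunja-tang, and Sibjeondaebo-tang adds further herbs to Palmul-tang.

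The titles of all 30 libraries name the same batch. Yet library codes of the vehicle begin differently from those of every extract library, so treatment and what the code stands for cannot be told apart. The codes of Samul-tang and Sagunja-tang also begin differently from those of Palmul-tang and Sibjeondaebo-tang. Between these pairs, formula and code cannot be told apart either. The labels do not say whether replicates were separate cultures, so p-values measure only the spread between these libraries. Depth was 28579639 to 35159898 counts in the low-dose libraries and 23986637 to 30217580 in the vehicle libraries. The epithelial keratins that mark this line were abundant, with KRT8 at 3440 to 4390 CPM (counts scaled to a common library size) and KRT18 at 2350 to 2900 CPM. Markers of alveolar type 2 cells ranged widely: the surfactant genes SFTPC and SFTPA1 had at most 0.216 and 0.0417 CPM, while SFTPD was at 8.27 to 10.2 CPM and the lipid transporter ABCA3 at 23.8 to 30.3 CPM. The 10 markers of this type summed to 37.2 to 39.4 CPM in vehicle and to 38.2 to 43.3 CPM in the extracts, and of the 6 tested none passed the test without the correction described below and 2 rose with it (1 without vehicle replicate 1). Markers of leukocytes summed to 3.63 to 4.32 CPM in the low-dose libraries and 4.04 to 4.46 CPM in the vehicle libraries. Of these CD14 was at 2.30 to 3.04 CPM, and CD3E had a median of 0. Fibroblast markers summed to 15.6 to 16.0 CPM in vehicle and 16.7 to 21.2 CPM in the extracts, with COL3A1 at 7.47 to 11.2 CPM. Of 4 tested, 2 were called higher, and 1 with the correction. Endothelial markers summed to 18.3 to 19.9 CPM in vehicle and 19.4 to 22.1 CPM in the extracts, mostly KDR (18.0 to 21.9 CPM).

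Several programmes are background to the groups below. Hepatocytes secrete fibrinogen, kininogen and apolipoproteins, and some lung adenocarcinoma lines, A549 among them, transcribe these liver-type genes. Cells short of sterol raise genes of its synthesis and uptake through the SREBP transcription factors, and cells with ample sterol lower them. Mitotic genes peak late in the cell cycle and are held down in resting cells by a repressor complex that binds a short promoter element. ID genes are direct targets of bone morphogenetic protein (BMP) signalling, and the clock genes form a feedback loop with a daily rhythm.

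Of 17701 genes tested, 7631 (43.1%) differed between low dose and vehicle at an adjusted p under 0.05 (edgeR's quasi-likelihood test with Benjamini-Hochberg adjustment). The extract libraries were higher for 3820 of them (21.6%) and lower for 3811 (21.5%). Most differences were small: 65 called genes (0.367%) had a log2 change of 1 or more and 129 (0.729%) one of -1 or less. In 5540 genes (31.3%) the 9 low-dose and the 3 vehicle libraries did not overlap, and in 2530 genes (14.3%) all 27 extract libraries of the series lay on 1 side of the vehicle.

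The direction of change followed the GC content of the transcript. Genes were ranked by GC content and split into 10 bins of equal size. In the bin with the lowest GC content, the median log2 change was 0.24, 58.9% were called higher and 1.08% lower. In the bin with the highest GC content the median was -0.31, 0.34% were called higher and 60.8% lower. The slope of a library's log2 levels on GC content was 0.14, 0.17 and 0.20 log2 per 10 percentage points in the vehicle libraries and -0.064 to 0.011 in the low-dose libraries. No overlap was seen at the other doses either, since all 27 extract libraries lay between -0.076 and 0.022. Longer transcripts were also called higher more often, in 42.4% of the bin with the longest against 3.76% of that with the shortest. The shares called lower were 11.6% and 17.1%, and the medians 0.12 and -0.12. Calls of either direction were more frequent among long transcripts even with the correction described below. There the longest bin had 17.0% higher and 16.9% lower, and the shortest 5.18% and 7.80%.

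**Figure D1:**
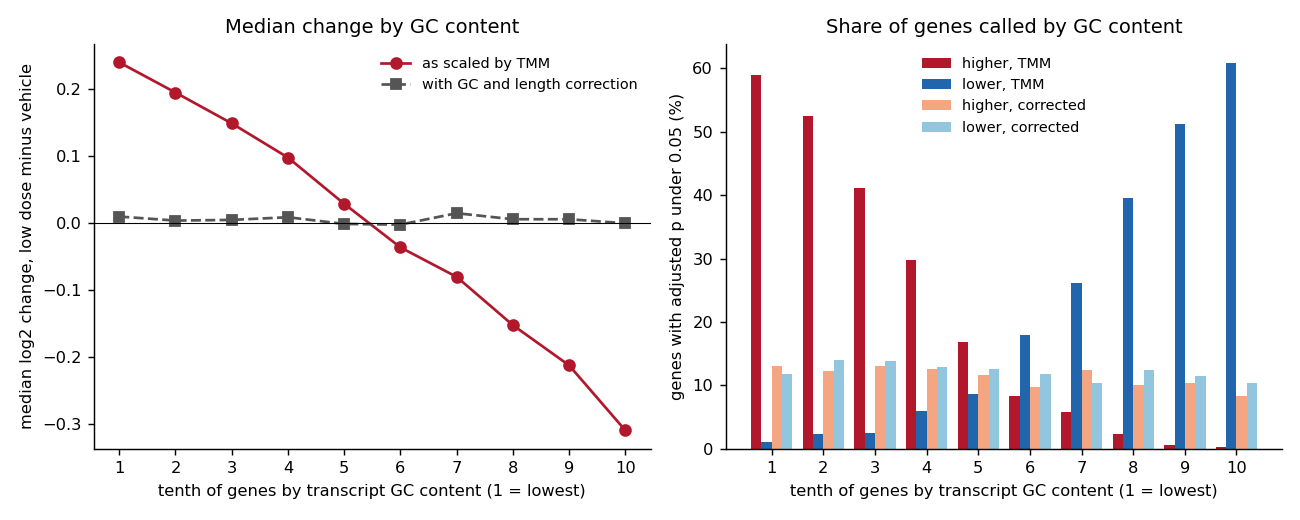
The 10 bins of genes are ordered by the GC content of their longest transcript (x axis, 1 is lowest). The left panel shows the median log2 change of low dose minus vehicle and the right panel the percent of genes called in each direction, with and without correction for GC content and length. Without correction the median falls from 0.24 to -0.31 across the bins. With it the medians lie within 0.014 of 0, which the correction is built to give.

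**Figure D2:**
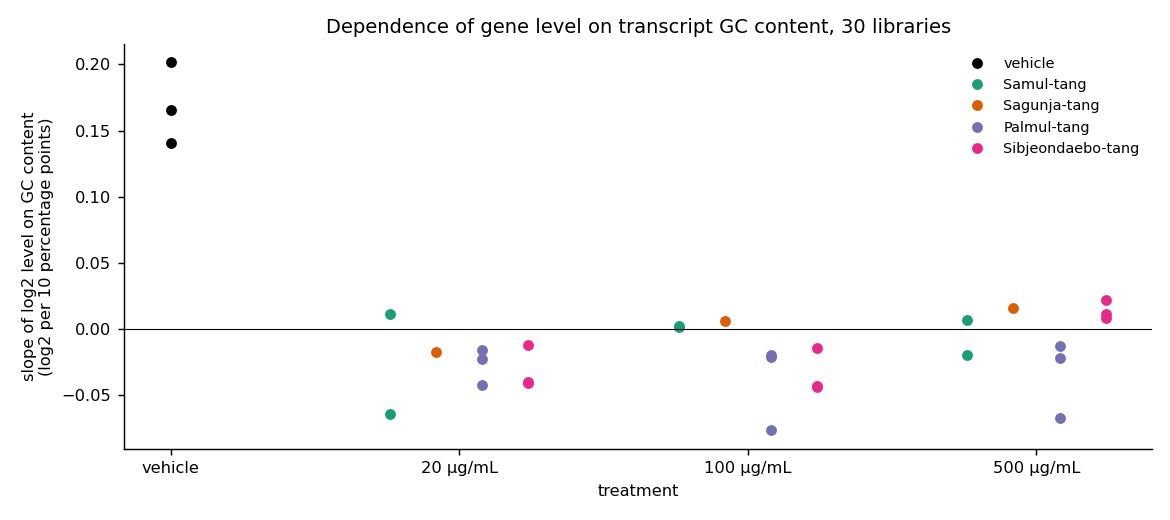
Each point is 1 of the 30 libraries, coloured by formula and placed by treatment. The y axis is the slope of log2 level on transcript GC content in log2 per 10 percentage points. The 3 vehicle libraries lie at 0.14 to 0.20 and the 27 extract libraries at -0.076 to 0.022.

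A second fit therefore removed each library's dependence on GC content and length. It was chosen after the data were seen, and every gene list below is given with and without it. By construction it brings the medians of the GC bins near 0. It would equally remove any treatment difference that follows GC content or length. Which fit is closer to the RNA of the cells was not tested. In this corrected fit 4129 of 17570 genes (23.5%) passed, 1995 higher (11.4%) and 2134 lower (12.1%), and the median log2 change of all genes was 0.004. Of the genes called without correction, 2735 were called in the same direction with it, 136 in the opposite direction and 4732 were not called. A further 1258 were called only with correction. Each list count below is to be read beside these shares of all genes. Of the 13947 protein-coding genes tested, 25.7% were called higher and 24.8% lower without correction. A count near such a share is not a result about the list.

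Genes of liver-type secretion gave the highest list median. CPB2, a carboxypeptidase that slows fibrin breakdown, was at 5.02, 5.38 and 4.28 CPM in the vehicle libraries. It ran from 8.50 to 10.5 CPM, median 9.62, in the low-dose libraries. Every low-dose library was above every vehicle library, and the log2 change was 0.96 (SE 0.078, adjusted p = 6.6e-11). The gene lies on chromosome 13 (GRCh38, 46053195 to 46105033, minus strand) and is protein-coding.

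KNG1 encodes kininogen, the precursor of bradykinin. It was at 12.2, 11.8 and 14.0 CPM in vehicle and at 16.9 to 21.1 CPM, median 19.1, in the extracts. The groups did not overlap, and KNG1 rose by a log2 change of 0.60 (SE 0.073, adjusted p = 6.3e-08). APOH, a phospholipid-binding plasma glycoprotein, was at 10.5, 11.9 and 10.4 CPM in vehicle and at 15.1 to 17.2 CPM, median 15.3, in the extracts, again without overlap.

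Of 17 tested genes on the list of hepatocyte-type secreted proteins, 12 rose, none fell and 5 did not pass, with a median log2 change of 0.39 against -0.003 for all genes. With the correction 13 rose, none fell and the median was 0.33. The fibrinogen chains were the most abundant members. FGG went from 745 ± 49.0 CPM (SD, n = 3) to 974 ± 36.5 CPM (SD, n = 9) and FGA from 957 ± 41.7 to 1120 ± 28.3 CPM (SD, n = 3 and 9). Among the other members that rose, transferrin (TF) had a log2 change of 0.61, the RNA-binding cofactor A1CF 0.67, factor V (F5) 0.51, apolipoprotein B (APOB) 0.47 and the protease inhibitor SERPINA1 0.40. HP, which encodes haptoglobin, had a log2 change of 0.50 with overlapping groups, and its call was lost without vehicle replicate 1. With the correction FGA lost its call without vehicle replicate 1 and APOB without vehicle replicate 2. The corrected count of 13 was 9 without vehicle replicate 1 and 10 without vehicle replicate 2.

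More genes of fatty acid oxidation rose than fell. PPARA, the nuclear receptor that drives this pathway, rose from 6.74 ± 0.58 to 9.29 ± 0.54 CPM (SD, n = 3 and 9). PDK4, a kinase that turns off glucose oxidation, rose from 345 ± 4.39 to 430 ± 11.8 CPM (SD, n = 3 and 9). PDK4 lost its corrected call without vehicle replicate 2. On the list of fatty acid oxidation and PPAR targets 10 of 17 genes rose and none fell (median 0.16), and with the correction 9 rose and 1 fell (median 0.11). The corrected count of 9 was 5 without vehicle replicate 1. ACADM, which starts the oxidation of medium-chain fatty acids, rose without the correction but not with it (adjusted p = 0.09). HAO1, a liver peroxisomal oxidase named among the 12 largest increases, went from 6.96 ± 0.14 to 11.7 ± 1.01 CPM (SD, n = 3 and 9).

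**Figure D3:**
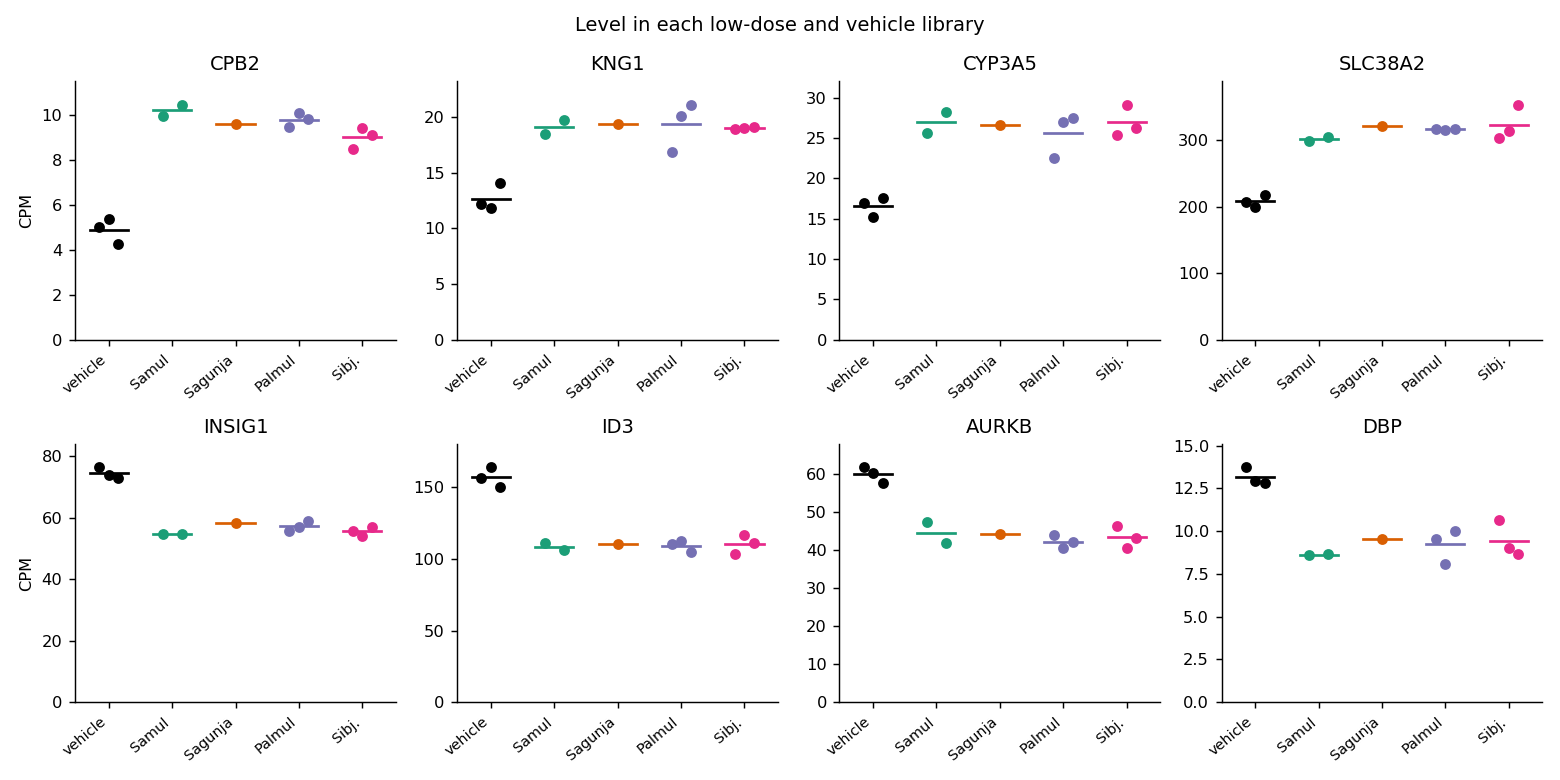
Each point is the level of a gene in 1 library, in CPM on the y axis from 0, and each line is the mean of a group. The vehicle libraries are at the left and the low dose of each formula follows (Sibj. is Sibjeondaebo-tang). In all 8 genes no low-dose library overlaps the vehicle, and CPB2 lies at 8.50 to 10.5 CPM over the 4 formulas.

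Genes of drug metabolism changed in both directions. CYP3A5, a steroid and drug oxidase, was at 16.9, 15.2 and 17.5 CPM in vehicle and at 22.5 to 29.1 CPM, median 26.6, in the extracts. The groups did not overlap, and the log2 change was 0.68 (SE 0.066, adjusted p = 1.8e-09). CYP24A1, which inactivates vitamin D, had a log2 change of 0.32, the microsomal glutathione transferase MGST1 0.34 and the conjugate exporter ABCC2 0.22, all called with the correction too. ABCC2 lost its corrected call without vehicle replicate 2. On the list 8 of 22 genes rose and 4 fell, and with the correction 8 rose and none fell.

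Targets of the aryl hydrocarbon receptor (AhR), which senses planar aromatic compounds, were not uniform. Of 10 genes tested 5 rose and 1 fell, and with the correction 2 rose, or 1 without vehicle replicate 1. UGT1A6, a glucuronidating enzyme whose gene overlaps its UGT1A relatives so that reads may be shared, had a log2 change of 0.31. UGT1A6 kept its call with the correction, though not when vehicle replicate 2 was left out as well. TIPARP, a feedback inhibitor of the receptor, had 0.20 and lost its call with the correction. The aldehyde dehydrogenase ALDH3A1 was lower without the correction (-0.19), and with it the sign changed (0.03, adjusted p = 0.51).

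Targets of NRF2, the factor that answers oxidative stress, were split in direction. Of 26 genes 12 rose and 8 fell, and with the correction 8 rose and 4 fell, or 2 without vehicle replicate 1. Among all genes 21.6% rose and 21.5% fell, and with the correction 11.4% and 12.1%. OSGIN1, a growth inhibitor induced by oxidative stress, was at 82.6, 85.1 and 78.7 CPM in vehicle and at 50.3 to 56.7 CPM, median 52.6, in the extracts. No libraries overlapped and OSGIN1 fell by 0.63 on the log2 scale (SE 0.042, adjusted p = 1.7e-12). The cystine carrier SLC7A11 rose (0.43) and so did malic enzyme ME1 (0.30), while sulfiredoxin SRXN1 fell (-0.23), and these calls held with the correction.

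Among genes of sterol balance, INSIG1 was lower. INSIG1, which holds the SREBP complex in the endoplasmic reticulum, was at 76.5, 74.0 and 72.9 CPM in vehicle and at 54.2 to 59.0 CPM, median 55.8, in the extracts. The groups did not overlap, and the log2 change was -0.40 (SE 0.034, adjusted p = 1.1e-10). With the correction it was -0.46. INSIG1 lies on chromosome 7 (GRCh38, 155297776 to 155310235, plus strand).

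Of 23 genes of cholesterol synthesis and uptake, 10 fell and 5 rose (median -0.06), and with the correction 9 fell and 3 rose (median -0.04). The counts of genes that rose were 3 and, with the correction, 1 when vehicle replicate 1 was left out. The synthesis enzyme MVD fell (-0.44), while the desaturase SC5D rose (0.37) and so did the sterol carrier STARD4 (0.36), the last without a call after correction. MVD lost its corrected call without vehicle replicate 1 or 3, and SC5D without vehicle replicate 1 or 2. Fatty acid synthesis gave mixed counts: 5 of 11 genes rose and 4 fell, and with the correction 2 rose and 1 fell. Among them FASN, the fatty acid synthase, fell without the correction (-0.37) but not with it (-0.07, adjusted p = 0.075), whereas SREBF1, which encodes a transcription factor of lipid synthesis, fell in both (-0.47 and -0.21).

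The mitotic genes gave different counts with and without the correction. Without it 13 of 30 fell, and CDK1, the mitotic kinase, and TOP2A, a topoisomerase, were called higher (0.13 and 0.10). Neither was called without vehicle replicate 1, and only 1 of them without vehicle replicate 2, Palmul-tang replicate 1 or Samul-tang replicate 3. With it 25 fell, none rose, and the median log2 change was -0.20 against -0.07 before. CDK1 then had a log2 change of -0.08 (adjusted p = 0.13) and TOP2A one of -0.11 (adjusted p = 0.022). The median transcript GC content of this list was 43.8%, against 48.6% for all genes.

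AURKB, a kinase of chromosome segregation, was at 61.9, 60.5 and 57.9 CPM in vehicle and at 40.7 to 47.4 CPM, median 43.1, in the extracts. No library of either group overlapped the other, and AURKB fell by 0.47 on the log2 scale (SE 0.040, adjusted p = 1.7e-10). CDC20, an activator of the anaphase ubiquitin ligase, went from 81.5 ± 2.43 to 61.0 ± 2.85 CPM, UBE2C, its ubiquitin-conjugating enzyme, from 42.4 ± 2.34 to 33.4 ± 2.09 CPM and PLK1, a mitotic kinase, from 138 ± 3.12 to 108 ± 8.21 CPM (SD, n = 3 and 9). CENPA, the centromeric histone, had a log2 change of -0.35 with the correction and without it. MKI67, the proliferation antigen Ki-67, was at 421, 320 and 430 CPM in vehicle and at 269 to 338 CPM in the extracts, so vehicle replicate 2 lay inside the range of the extracts.

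The 250 bases before the start of 5 of these genes are shown as background on the mitotic list. They come from RefSeq (GRCh38.p14): AURKB chr17:8210226-8210475 (minus strand), CDC20 chr1:43358731-43358980 (plus), PLK1 chr16:23678639-23678888 (plus), CENPA chr2:26785806-26786055 (plus) and MKI67 chr10:128126424-128126673 (minus). Capitals mark TTTGAA, the core of the cell cycle homology region, and CCAAT, each searched on both strands. In MKI67 a pair of matches overlap.
AURKB: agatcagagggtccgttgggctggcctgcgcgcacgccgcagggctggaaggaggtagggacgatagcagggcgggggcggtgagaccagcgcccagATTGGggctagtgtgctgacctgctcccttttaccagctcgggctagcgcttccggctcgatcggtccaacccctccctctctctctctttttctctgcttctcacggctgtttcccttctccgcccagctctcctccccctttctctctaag
CDC20: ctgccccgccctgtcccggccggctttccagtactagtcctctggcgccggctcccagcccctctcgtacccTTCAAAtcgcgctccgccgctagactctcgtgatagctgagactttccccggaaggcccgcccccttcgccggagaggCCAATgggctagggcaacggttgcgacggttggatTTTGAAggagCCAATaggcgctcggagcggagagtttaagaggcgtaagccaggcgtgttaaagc
PLK1: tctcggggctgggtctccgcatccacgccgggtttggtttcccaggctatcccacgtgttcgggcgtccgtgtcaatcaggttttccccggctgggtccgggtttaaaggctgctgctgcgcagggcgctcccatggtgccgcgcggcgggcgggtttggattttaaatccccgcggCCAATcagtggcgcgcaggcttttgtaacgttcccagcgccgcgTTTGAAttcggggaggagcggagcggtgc
CENPA: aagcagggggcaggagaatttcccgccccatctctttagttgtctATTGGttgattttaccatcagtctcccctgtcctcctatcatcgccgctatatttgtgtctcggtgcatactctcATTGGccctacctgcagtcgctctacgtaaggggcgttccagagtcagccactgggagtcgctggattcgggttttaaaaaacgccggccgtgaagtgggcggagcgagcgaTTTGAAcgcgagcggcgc
MKI67: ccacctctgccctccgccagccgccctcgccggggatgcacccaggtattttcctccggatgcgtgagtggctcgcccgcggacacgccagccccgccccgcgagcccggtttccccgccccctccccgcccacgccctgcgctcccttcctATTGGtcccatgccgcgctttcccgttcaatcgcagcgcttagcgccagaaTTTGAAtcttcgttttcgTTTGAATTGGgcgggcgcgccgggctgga

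TTTGAA was found in 15 of the 25 mitotic promoters in the RefSeq table (60.0%) and in 13.3% of all 35116 promoters of the same length. CCAAT was found in 21 (84.0%) against 32.0%, and both together in 13 (52.0%) against 4.7%. Of the sequences shown, CDC20, PLK1, CENPA and MKI67 held both motifs and AURKB held only CCAAT. A match is a run of letters and was not tested as a binding site. The shares cover members of the mitotic list whatever their change, so they are not a result of these libraries. The mitotic set held a single promoter per gene, and the set of all promoters was not reduced in this way.

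More genes of DNA replication fell than rose. Of 32 genes 14 fell and 2 rose (1 without vehicle replicate 1), and with the correction 14 fell and none rose (median -0.10 in both). CDT1, which licenses replication origins, was at 37.3, 33.3 and 29.8 CPM in vehicle and at 19.9 to 23.6 CPM, median 21.3, in the extracts. The groups did not overlap, and the log2 change was -0.64 (SE 0.059, adjusted p = 6.5e-10). MCM5 and MCM7, subunits of the replicative helicase, had log2 changes of -0.40 and -0.30, and GINS2, a helicase cofactor, -0.30, all called with the correction. POLD1, the catalytic subunit of a replicative polymerase, fell without the correction (-0.39) but not with it (-0.08, adjusted p = 0.14).

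The ID genes and SMAD6 were lower. ID3, an inhibitor of helix-loop-helix factors, was at 157, 164 and 150 CPM in vehicle and at 103 to 117 CPM, median 111, in the extracts. All low-dose libraries were below all vehicle libraries, with a log2 change of -0.52 (SE 0.040, adjusted p = 3.1e-11) and -0.32 with the correction. ID2, from the same family, went from 25.9 ± 0.77 to 20.4 ± 0.94 CPM, and SMAD6, an inhibitor of BMP signalling, from 16.2 ± 0.35 to 12.2 ± 0.67 CPM (SD, n = 3 and 9). Of 18 genes of the TGF-beta and BMP response 9 fell and 2 rose (1 without vehicle replicate 3), and with the correction 5 fell, among them ID3, SMAD6, ID2 and TGFBI, none rose and 13 were not called.

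In the Notch pathway, where receptors are cut on contact with ligands of neighbouring cells, 6 of 12 genes fell and none rose. With the correction 3 fell: the receptor NOTCH3 (-0.42 without, -0.17 with), the ligand JAG2 (-0.42 and -0.15) and the target HES4 (-0.87 and -0.42). The corrected count was 1 without vehicle replicate 1 and 1 without vehicle replicate 2. HES4 lost its call in both cases and with the replicate number as a block, JAG2 without vehicle replicate 2 or 3, and NOTCH3 without vehicle replicate 1. NOTCH1 fell only without it (-0.40 against -0.15, adjusted p = 0.0605 with it). The median transcript GC content of this list was 61.0%.

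Immediate early genes, which growth factors switch on within minutes, were lower in 14 of 21 cases and higher in 1. With the correction 6 were lower and 2 higher (4 without vehicle replicate 1), and the median log2 change went from -0.28 to -0.06. EGR1, a zinc finger factor of this class, was at 3.11, 2.34 and 2.28 CPM in vehicle and at 1.08 to 1.78 CPM, median 1.66, in the extracts, without overlap (log2 change -0.77, and -0.63 with the correction). KLF4 and the orphan receptor NR4A1 also fell in both fits (-0.47 and -0.39 without correction), while JUND, a subunit of the AP-1 factor, fell only without it. NR4A1 lost its corrected call without vehicle replicate 1. KLF6, a zinc finger factor, rose from 71.6 ± 4.69 to 87.2 ± 1.84 CPM (SD, n = 3 and 9).

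RELB and NFKB2, partners in the noncanonical NF-kB pathway, were both lower. RELB was at 9.74, 9.28 and 9.46 CPM in vehicle and at 4.20 to 6.58 CPM, median 5.71, in the extracts, a clear gap (log2 change -0.77, SE 0.086, adjusted p = 1.2e-08). NFKB2 went from 53.6 ± 1.47 to 40.5 ± 2.77 CPM (SD, n = 3 and 9), and lost its corrected call without vehicle replicate 2. Of 21 genes of the NF-kB and inflammatory list 7 fell and 2 rose, and with the correction 5 fell and none rose. The corrected count of 5 was 3 without vehicle replicate 1 or 2, and the 2 that rose became 1 without vehicle replicate 1, Sagunja-tang replicate 3, Palmul-tang replicate 1 or 3, or Sibjeondaebo-tang replicate 1. The adhesion molecule ICAM1 fell with overlapping groups (-0.75) and lost its call without vehicle replicate 1, and the chemokine CXCL8 was called higher (0.37, adjusted p = 0.044) but lost the call with the correction, in DESeq2 and without each vehicle library in turn.

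Of the clock genes, some lost their change with the correction and others kept it. CLOCK, at 37.2% GC, was called higher (0.23) and PER1, at 62.7% GC, lower (-0.20), and with the correction both had changes near 0 of the opposite sign, except that CLOCK was at 0.022 without vehicle replicate 1. Without vehicle replicate 1 the call of PER1 was lost in the uncorrected fit, and with the correction it was called higher (0.11). DBP, a clock output factor, was at 13.7, 12.9 and 12.8 CPM in vehicle and at 8.10 to 10.6 CPM, median 9.04, in the extracts. Its groups did not overlap, and it fell in both fits (log2 change -0.52 and -0.36). PER3, a repressor of the loop, fell as well (-0.53 and -0.61), as did NR1D2, a nuclear receptor of the loop (-0.25 and -0.47). Of 18 clock genes 7 fell and 4 rose, and with the correction 6 fell and 1 rose. Without vehicle replicate 1 only 3 fell before correction and 2 rose after it, and when any of the vehicle libraries was left out 2 rose before correction.

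The counts of stress programmes depended on the correction. Among targets of ATF4, the factor of the amino acid response, 12 of 24 fell and 5 rose (median -0.16), and with the correction 3 fell and 6 rose (median 0.004). Leaving out vehicle replicate 1 gave 3 genes that rose in either fit. SLC38A2, a neutral amino acid carrier, was at 208, 200 and 218 CPM in vehicle and at 299 to 354 CPM, median 316, in the extracts. The groups did not overlap, and SLC38A2 rose by a log2 change of 0.60 (SE 0.038, adjusted p = 1.1e-12) and by 0.38 with the correction. On the same list the carrier SLC7A5 fell (-0.35) and the transcription factor ATF5 fell (-0.67), both also with the correction.

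The list of hypoxia and glycolysis changed its balance from 9 higher and 9 lower of 25 to 12 higher and 3 lower with the correction (1 lower without vehicle replicate 1). P4HA1, a collagen hydroxylase, went from 32.2 ± 1.80 to 43.8 ± 2.05 CPM (SD, n = 3 and 9), and LDHA, lactate dehydrogenase, from 1787 ± 43.0 to 2123 ± 38.3 CPM (SD, n = 3 and 9). The glycolytic enzyme ALDOA fell in both fits (-0.36 and -0.24). Of 21 interferon-stimulated genes 7 rose and 2 fell, and with the correction 4 rose and none fell, with IFIT1, an RNA-binding antiviral protein, at 0.45 and STAT2, a transducer of interferon signals, at 0.22 before correction. Without vehicle replicate 3 the corrected count of 4 was 2, and without vehicle replicate 1 or 3 the 2 that fell became 1. The unfolded protein response went from 12 higher and 5 lower of 20 (median 0.12) to 4 higher and 1 lower (median 0.04). Without vehicle replicate 1 it had 2 lower before correction and 2 higher after it, and without vehicle replicate 2 it had 3 lower before correction.

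Among genes of cell shape, vimentin (VIM), a filament of mesenchymal cells, fell from 894 ± 27.3 to 735 ± 25.3 CPM (SD, n = 3 and 9), and the factor SNAI1 fell (-0.50). The tight junction gene CLDN2 rose from 4.87 ± 0.24 to 7.28 ± 0.52 CPM, and the adhesion molecule EPCAM from 18.6 ± 0.83 to 21.4 ± 1.07 CPM (SD, n = 3 and 9). These calls held with the correction, but EPCAM lost its corrected call without vehicle replicate 1 or 2 and SNAI1 without vehicle replicate 1. The list of epithelial-mesenchymal genes as a whole had 9 higher and 6 lower of 21, and 3 higher and 5 lower with the correction. Without vehicle replicate 2 the count of 9 was 4. The keratins KRT8 (-0.28) and KRT18 (-0.23) fell too, but their genes overlap on opposite strands, and whether counting used strand is not known here, so their reads cannot be told apart. The 6 epithelial markers together were at 10980 to 11450 CPM in vehicle and at 8426 to 9802 CPM in the extracts, with 4 lower and 2 higher (median -0.23). With the correction 2 were lower, 1 was higher, 3 were not called and the median was -0.006. The corrected count of 2 was 1 without vehicle replicate 1 or 2, and the 2 higher became 1 without vehicle replicate 2, Palmul-tang replicate 3 or Samul-tang replicate 3. In bulk RNA of 1 cell line, fewer cells that express a gene and less of its RNA per cell cannot be told apart.

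**Figure D4:**
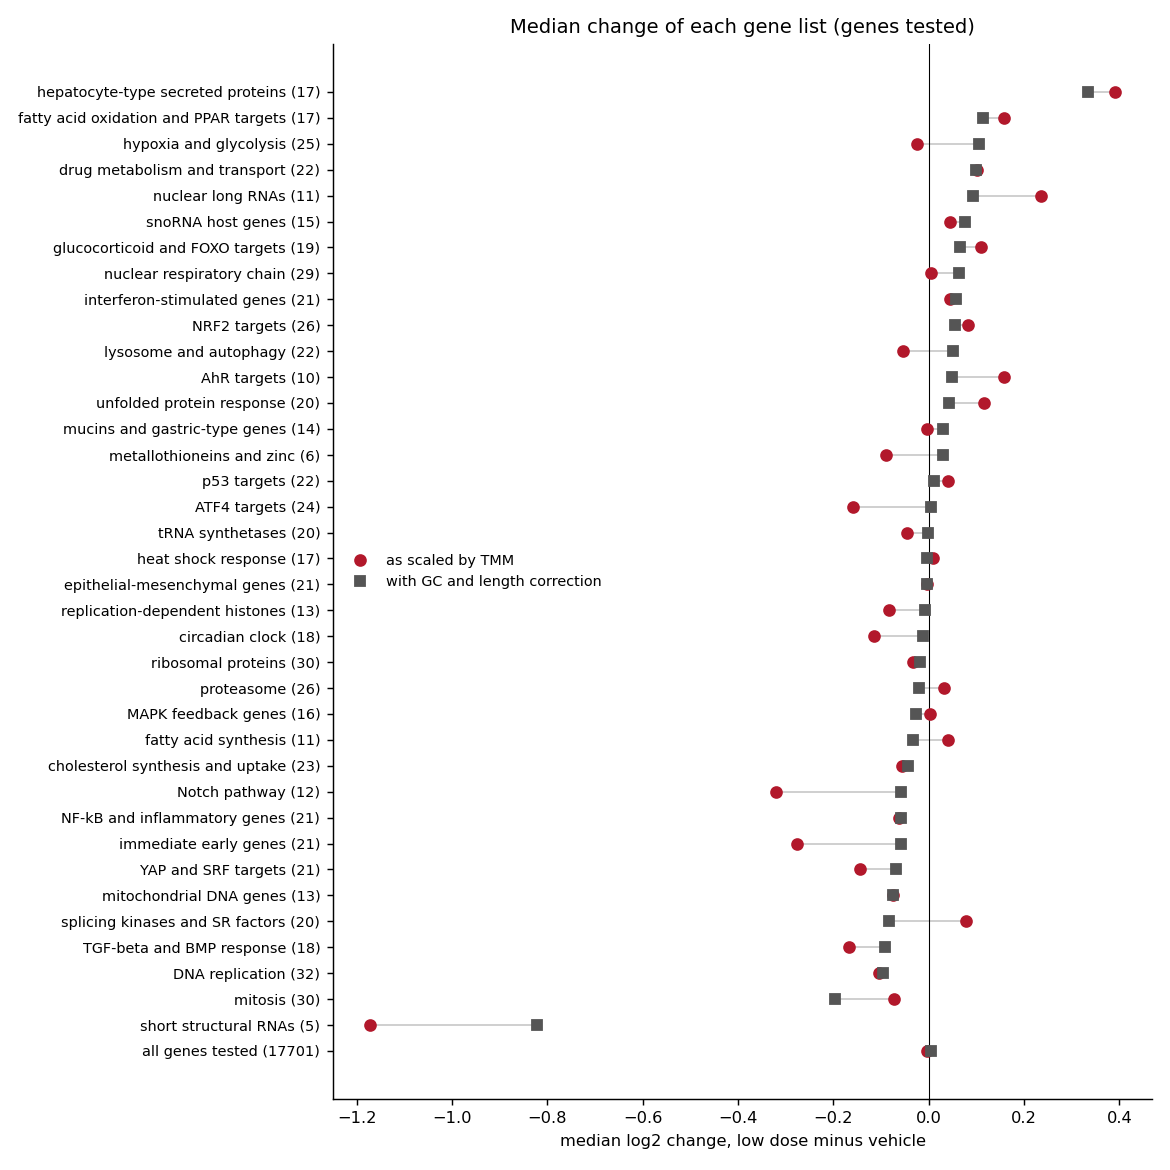
Median log2 change of low dose minus vehicle (x axis) for each pathway list, with the number of genes tested in parentheses and all genes at the bottom. Circles are the fit scaled by trimmed means (TMM) and squares the fit corrected for GC content and length. Secreted liver-type proteins have the highest median in both (0.39 and 0.33), while the median of the mitotic genes goes from -0.07 to -0.20 and that of the Notch genes from -0.32 to -0.06.

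Among genes with a mean log2 CPM of 2 or more and no overlap of the groups, the 12 largest increases and the 12 largest decreases included several genes that share reads with near-identical copies, so their values are uncertain. Among the increases these were the histone H4C15 (log2 change 1.40, with vehicle values from 0.205 to 5.38 CPM) and the pseudogenes RPL7AP6, RPSAP15 and AADACP1. Among the others were CPB2, HAO1, the stress regulator CREBRF (0.88), the noncoding RNA LINC00886, the ciliary transcription factor RFX3 (0.78), the potassium channel KCNJ16 (0.75) and the phosphatase PPM1E (0.74). H4C15 was not called when only the 12 libraries were fitted.

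Among the decreases the copies were RN7SL1 and RN7SL2, which encode the RNA of the signal recognition particle, and the pseudogenes UBE2SP1, KRT87P and MTCO1P12. RN7SL1 was at 31.6, 21.9 and 21.4 CPM in vehicle and at 7.77 to 14.6 CPM in the extracts (log2 change -1.17). The protein-coding ones were RRAD, a small GTPase (-0.87), HES4, MEX3D, an RNA-binding protein (-0.85), PPDPF (-0.78), RELB, the linker histone H1-10 (-0.77) and CCDC85B (-0.76). Their transcripts had 65.4% to 73.9% GC, and with the correction their changes shrank to between -0.35 and -0.52 and were still called.

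Short structural RNAs had 4 of 5 tested genes lower, with and without the correction (2 with it when vehicle replicate 1 was left out). They took 0.0047% to 0.0064% of counts in the vehicle libraries and 0.0015% to 0.0032% in the low-dose libraries, without overlap (two-sided exact permutation test p = 0.0091, the smallest that 9 against 3 libraries can give, and adjusted p = 0.073 over 8 measures of composition). Total counts gave p = 0.036 and adjusted p = 0.15 in the same exact test, and shares of mitochondrial, ribosomal protein, histone and nuclear RNAs, of the 100 most abundant genes and the number of genes detected had adjusted p of 0.60 to 0.86. RPPH1 and RMRP, the RNAs of the RNase P and RNase MRP enzymes, were at or below 3.35 and 1.87 CPM in every library of the comparison. Among nuclear long RNAs 5 of 11 rose, and MALAT1 (-0.42) and KCNQ1OT1 (-0.44) fell, with the same counts after correction. The corrected count of 5 was 1 without vehicle replicate 1 and 2 without vehicle replicate 2. In MALAT1 1 low-dose library, Samul-tang replicate 2, was above all vehicle libraries at 817 CPM, and the other 8 were at 492 to 581 CPM.

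Set against the vehicle separately, the formulas gave 5430 genes for Samul-tang (30.7%), 3389 for Sagunja-tang (19.1%), 6372 for Palmul-tang (36.0%) and 6523 for Sibjeondaebo-tang (36.9%). Sagunja-tang had 1 library, whose spread was taken from the other groups, and without replicate 3 Samul-tang had 2410. Counts were higher for formulas with more libraries, so they do not rank the size of the changes. The 4 comparisons share the vehicle libraries, so their values are given side by side without a test of likeness. The log2 change of CPB2 was 1.06 in Samul-tang, 0.97 in Sagunja-tang, 0.99 in Palmul-tang and 0.87 in Sibjeondaebo-tang. That of INSIG1 was -0.44, -0.35, -0.38 and -0.42 in the same order, and that of ID3 -0.53, -0.51, -0.52 and -0.50.

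A test of any difference among the 4 formulas at the low dose called no gene (edgeR's quasi-likelihood test, 0.0%), with 350 genes (1.98%) at an unadjusted p under 0.05. DESeq2 called 1 gene, and without a filter on low counts edgeR called 10. The smallest p was that of ZNF225-AS1 (1.4e-04), a noncoding RNA with under 1 CPM on average, followed by CFLAR-AS1 and CCN6, also rare. None had an adjusted p under 1. Failing this threshold does not show that the formulas act alike. Between the pair Samul-tang and Sagunja-tang and the pair Palmul-tang and Sibjeondaebo-tang, formula also coincides with the start of the library code.

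The low dose lay further from the vehicle than the high dose in several of the genes above. These genes were named for their change at the low dose, a choice that itself favours such an order. How often it occurs among all genes was not counted. Among the 9 high-dose libraries the 3 of Sibjeondaebo-tang stood apart on the first principal component of all 30 libraries, at -48.1 to -39.9 against -5.94 to 14.95 for the other 27. Without them the high-dose medians were 6.61 CPM for CPB2, 21.5 for KCNJ16, 11.6 for KNG1, 75.1 for CDC20, 50.3 for AURKB, 90.8 for ID3, 50.5 for INSIG1 and 8.40 for RFX3, close to those with them given next. CPB2 had medians of 5.02 CPM in vehicle, 9.62 at 20 µg/mL, 8.69 at 100 µg/mL and 6.66 at 500 µg/mL. KCNJ16, a potassium channel, had medians of 18.2, 30.5, 28.5 and 21.3 CPM in the same order, and its high-dose range of 19.1 to 22.9 CPM did not reach the low-dose range of 27.9 to 31.7 CPM. KNG1 had medians of 12.2, 19.1, 15.6 and 11.5 CPM, and its high-dose libraries overlapped the vehicle.

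CDC20 and AURKB had the mirrored order. CDC20 had medians of 80.9, 61.4, 67.7 and 78.1 CPM and AURKB of 60.5, 43.1, 45.1 and 51.8 CPM, so their lowest levels were at the low dose. Other genes went on in the same direction: ID3 had medians of 157, 111, 100 and 92.6 CPM and INSIG1 of 74.0, 55.8, 54.6 and 53.2 CPM. RFX3 stayed at a similar level, with medians of 4.89 CPM in vehicle and 8.30, 8.02 and 8.12 CPM at the rising doses. These levels are a description, since all doses are set against the same 3 vehicle libraries.

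**Figure D5:**
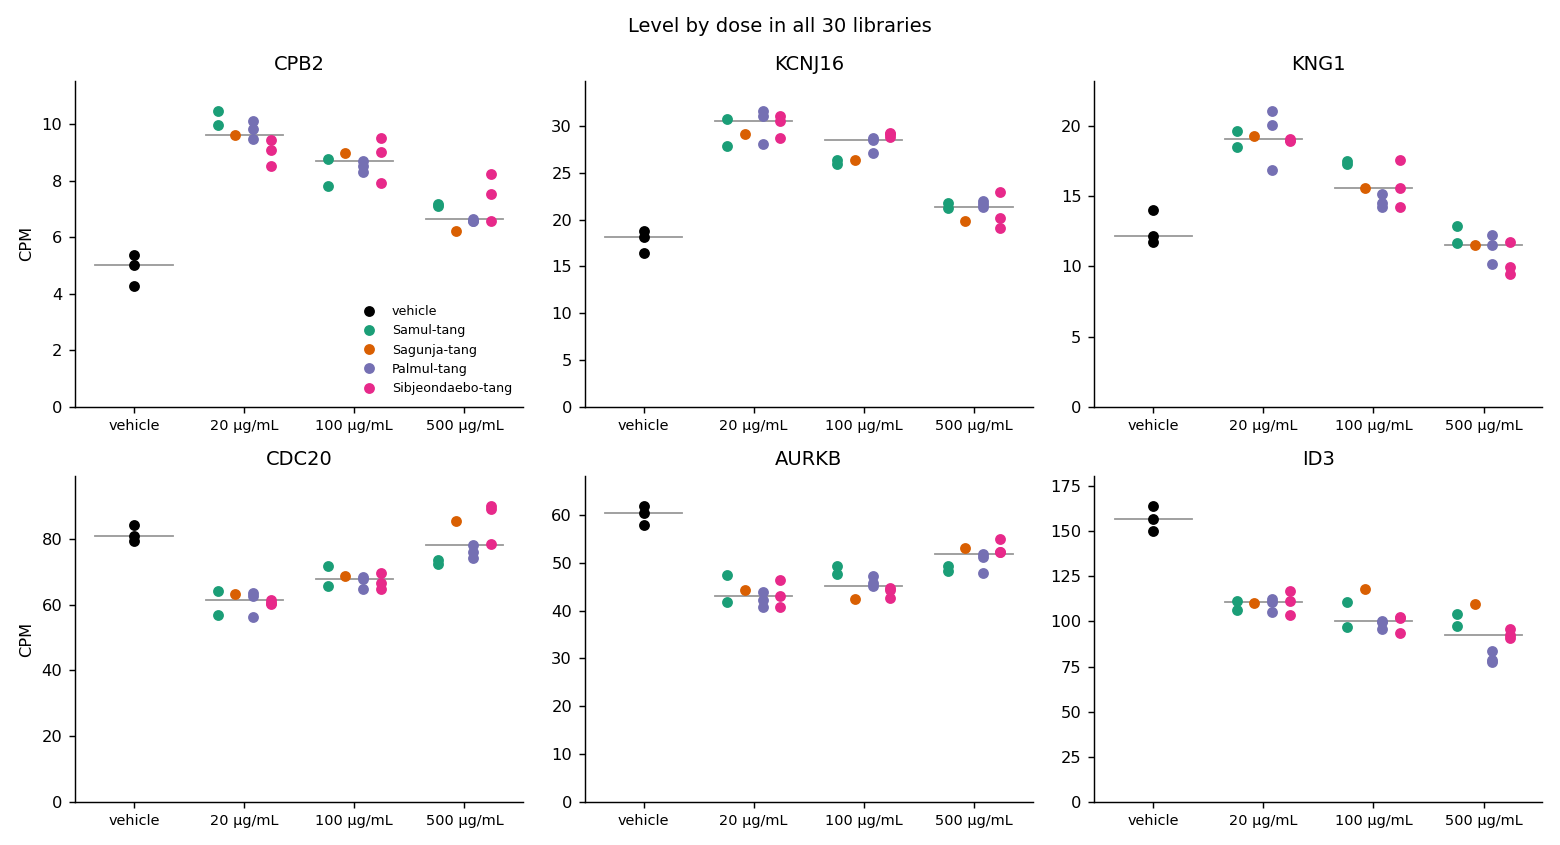
Level in CPM (y axis from 0) of 6 genes in all 30 libraries, by treatment on the x axis and coloured by formula, with grey lines at the medians. CPB2, KCNJ16 and KNG1 are highest at 20 µg/mL, CDC20 and AURKB are lowest there, and ID3 is lowest at 500 µg/mL. The genes were named for their change at the low dose.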

How the data were processed

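RNA of A549 cells was sequenced after 24 h. Per the submitters' processing notes, reads were handled with FastQC 0.11.9, Trim Galore 0.6.5, STAR 2.7.3a and RSEM 1.3.3 on GRCh38. The annotation used and whether counting was stranded are not given in the sources used here. The authors deposited gene-level expected counts from RSEM, and between 8.87% and 9.82% of them were not whole, so they were rounded. The table has 60675 gene rows, and its 240 columns of other samples were not used.

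Groups were taken from the labels (13 groups, 30 libraries). Genes were kept by filterByExpr (17701), scaled by TMM (0.969 to 1.05 in the 12 libraries compared) and fitted with a mean per group in edgeR 4.0.16 under R 4.3.3 (robust glmQLFit and glmQLFTest, 17 residual degrees of freedom). The 9 low-dose libraries had equal weight in the contrast with vehicle. P-values were adjusted by Benjamini-Hochberg over all genes with a threshold of 0.05. CPM used TMM-scaled library sizes, apart from the sums and levels of cell type markers, which used library totals. The scripts were tested on simulated data.

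GC content and length came from the longest GENCODE 29 transcript (99.3% of tested genes). The correction subtracted, per library, a smooth function of both as an offset. Slopes used 11210 genes whose mean log2 CPM was 2 or more and a pseudocount of 0.5 CPM. Coordinates of genes are from GENCODE 29.

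The comparison, the 42 gene lists (784 genes, 716 tested) and the members were chosen with earlier results of these data known. Named genes were the 12 largest changes per direction with adjusted p under 0.05, a symbol, mean log2 CPM no lower than 2 and no overlap of 9 and 3 libraries, up to 4 per list with the smallest adjusted p, and the 3 with the smallest p among formulas. Other list members are named only with their values and were chosen after these were seen. Alternatives were DESeq2 1.42.0, other scalings, filters, weights and fits, the replicate number as a block, a test against a 1.2-fold change, and leaving out each library or formula.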

Additional observations from a re-analysis of the deposited data

Results flagged for a closer look

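Among the 9 low-dose libraries, 10 of the 133 values examined had 1 library apart from the other 8 by more than 0.493 of the whole range, a gap that chance gives in about 1 of 20 such groups. Samul-tang replicate 2 was the library apart in 5 of them. It had 817.2 CPM of MALAT1 against 492.3 to 581.2 in the others, 12.64 CPM of KCNQ1OT1 against 9.373 to 10.75, 2.094 CPM of RPPH1 against 0.6616 to 0.9948, 88.98 CPM of PER1 against 78.43 to 83.25, and 4.084 CPM of PPM1E against 4.705 to 5.262.

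Sibjeondaebo-tang replicate 3 was apart in 3 of them, with 853.6 CPM of MGST1 against 960.5 to 1011, 884.2 CPM of ALDH3A1 against 963.6 to 1033, and 353.9 CPM of SLC38A2 against 299.4 to 321.8. Palmul-tang replicate 1 was apart in LINC00886, with 4.937 CPM against 5.763 to 6.6, and in AADACP1, with 4.593 CPM against 6.037 to 6.556.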

How the results depend on the processing

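The count of genes between low dose and vehicle (7631) ranged from 6102 to 7698 when each of the 12 libraries was left out, lowest without vehicle replicate 1, and from 6915 (DESeq2) to 7705 (replicate block) under other scalings, filters, weights and fits without a GC correction, except the test against a 1.2-fold change, which called 898. With library totals only, 4367 genes were higher and 3141 lower. GC and length correction gave 4129, GC correction alone 4060, the correction with the replicate block 4100, and the correction without vehicle replicate 1, 2 or 3 gave 2739, 3053 or 3720. The correction gave 1970 for Samul-tang, 694 for Sagunja-tang, 2710 for Palmul-tang and 3198 for Sibjeondaebo-tang. Without single libraries Samul-tang ranged from 2410 to 5458, lowest without its replicate 3, which leaves a lone library assumed to vary like the other groups. Among formulas the count of 0 became 10 with no filter and 1 in DESeq2. The difference in the percent of short structural RNAs ranged from -0.00312 to -0.00229 without each library, with adjusted p from 0.0485 to 0.291 (-0.00289 and 0.0485 without Samul-tang replicate 2), and the difference in total counts from 2367000 to 5482000, with adjusted p from 0.0485 to 0.485 (4861000 and 0.0485 without the same library).

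Deviations of same-numbered libraries had a median correlation of 0.004 over 15 pairs (-0.068 to 0.079). Between other numbers the median was 0.007 (-0.098 to 0.08). A median over all pairs cannot exclude pairing within some libraries or genes, and that was not tested. With the replicate number as a block 7705 genes were called between low dose and vehicle, against 7631 without it.

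Of 123 named genes, 54 kept direction and call under every alternative, 67 lost the call under at least 1, and 5 changed sign under correction. In the order GC and length, GC alone, with the block, and without vehicle replicate 1, 2 and 3, the log2 changes were 0.031, 0.021, 0.034, 0.049, 0.029 and 0.013 for ALDH3A1, 0.055, 0.070, 0.054, 0.112, 0.030 and 0.024 for PER1, -0.080, -0.107, -0.074, -0.112, -0.061 and -0.066 for CDK1, and -0.109, -0.101, -0.102, -0.137, -0.104 and -0.086 for TOP2A. For CLOCK they were -0.022, -0.006, -0.021, 0.022, -0.067 and -0.023, so its sign did not change without vehicle replicate 1. The cause was not tested.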

Other observations

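The counts of several further gene lists depended on the correction. Of 20 splicing kinases and SR factors 9 rose and 2 fell without the correction, and 2 rose and 9 fell with it. The 2 that fell became 1 without vehicle replicate 1, Palmul-tang replicate 1 or 2, Samul-tang replicate 3 or Sibjeondaebo-tang replicate 2 or 3. Heat shock genes had 6 higher and 5 lower of 17, and with the correction 4 higher and 7 lower (4 lower without vehicle replicate 1 or 2). Within them the small heat shock protein HSPB1 went from 870 ± 87.9 to 594 ± 47.5 CPM (SD, n = 3 and 9), a fall called in both fits. HSPB1 lost its corrected call without vehicle replicate 1. Of 19 glucocorticoid and FOXO targets 9 rose and 3 fell (1 without vehicle replicate 1), and with the correction 7 rose and none fell. KLF9, a hormone-responsive zinc finger factor, was at 34.0, 34.7 and 37.9 CPM in vehicle and at 43.1 to 47.5 CPM in the extracts, and rose in both fits (0.34 and 0.27).

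Among p53 targets 7 of 22 rose and 9 fell, and with the correction 6 rose and 2 fell. These counts were 3 and 1 without vehicle replicate 1, and without vehicle replicate 2 only 1 fell. CCNG1, a cyclin induced by p53, went from 126 ± 8.49 to 163 ± 4.81 CPM (SD, n = 3 and 9). Of 21 YAP and SRF targets 10 fell and 1 rose, and with the correction 7 fell and 2 rose. Without vehicle replicate 1 these were 3 and 1, and the 2 that rose became 0 without vehicle replicate 2 and 1 without vehicle replicate 3. The myosin light chain MYL9 fell in both fits (-0.51 and -0.28). MT-ATP8 was at 1563, 898 and 731 CPM in vehicle and at 472 to 867 CPM in the extracts. It overlaps MT-ATP6, and its call (-0.79) was lost without vehicle replicate 1.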
